A study of Homo sapiens with 63 samples.

Results

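The 38 genes described here encode the sensors of the unfolded protein response and the chaperones, disulfide enzymes, degradation factors and translocation factors of the endoplasmic reticulum (ER). They were chosen by symbol, and 38 of 38 are among the 13962 genes of the deposited table. By role they comprise 4 sensor genes (the transcription factor XBP1 counted with IRE1, PERK and ATF6), 13 chaperones and folding factors, 5 disulfide enzymes, 9 genes of ER-associated degradation (ERAD) and 7 genes of translocation and N-glycosylation. Proteins of the secretory pathway enter the ER through the SEC61 channel, are glycosylated and folded there by lectin and HSP70-type chaperones, and receive disulfide bonds from protein disulfide isomerases. They are sent back to the cytosol for degradation if folding fails. When unfolded proteins accumulate, the membrane proteins IRE1 (encoded by ERN1), PERK (EIF2AK3) and ATF6 start the unfolded protein response. IRE1 splices XBP1 mRNA, PERK slows translation through eIF2α, and ATF6 is cut to release a transcription factor. Chaperone, disulfide enzyme and ERAD genes are then transcribed more.

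The cells were COLO320DM, a human colorectal adenocarcinoma line, kept in RPMI medium with 4% fetal bovine serum. The series title describes a helicon peptide against the β-catenin/TCF transcription factor, the effector of canonical Wnt signalling. Cells received Helicon 4 at 1, 3 or 10 µM, Helicon 4-neg at 1, 3 or 10 µM, or the solvent DMSO, for 6, 24 or 48 h. The 21 groups of 3 libraries (63 in all, from poly(A) RNA) each hold one treatment at one time. The labels give no structure for either compound and do not say how they differ, and all groups come from 1 cell line. The labels number the 3 libraries of a group as biological replicates but do not say what was repeated, so the p-values measure the spread between these libraries, which may be partly technical.

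Libraries held 16628595 to 32860333 reads over the genes in the table. Values are the deposited scaled CPM, read counts set to a common library size. Whole reads could be recovered from them, and every one of the 38 genes had at least 59 reads in every library. Of 10 epithelial markers 9 are in the table, and their levels were mixed. CDX2 (2234 to 3977 scaled CPM over the libraries), KRT8 (142 to 340) and KRT18 (58.0 to 130.1) were the highest. EPCAM ranged between 1.04 and 4.16 and KRT20 between 0.386 and 3.89. KRT19, CDH1, CLDN3 and CLDN4 were at 0 in their lowest library, with medians of 0.374, 0.504, 0.206 and 0.376. These markers did not settle whether the line has an epithelial identity. Of 8 fibroblast markers 6 are in the table. At 10 µM and 48 h the summed fibroblast markers were 26.5 to 31.5 scaled CPM in Helicon 4, 5.80 to 9.80 in Helicon 4-neg and 7.16 to 45.0 in DMSO. At 48 h, 2 libraries stood apart by a low share of mitochondrially encoded transcripts: replicate 1 of Helicon 4-neg 1 µM (1.81%) and replicate 3 of Helicon 4-neg 3 µM (1.94%), against 3.21% to 4.67% in the other 19 libraries of that time. In bulk RNA, fewer cells of a type and less RNA per cell cannot be told apart.

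XBP1 mRNA and the promoters carry the sequence elements on which the response acts, and they are shown for that reason. IRE1 cuts a short segment out of XBP1 mRNA, which shifts the reading frame to that of the active transcription factor. In the GRCh38 genome with GENCODE 29, the segment lies in exon 4 of 5 of transcript XBP1-201. The first line gives chr22:28796109-28796164 on the minus strand, with a placement of the 26-base segment in capitals and 15 bases on each side. The second line is the joined form, as transcript XBP1-207 has it. The ends can be placed in 7 equivalent ways, and the placement shown ends both flank and segment on the same 4 bases. It was chosen by these letters and not by the site where IRE1 cuts. The bases that IRE1 removes may therefore be shifted by a few from those in capitals, with the same joined form. The gene-level values used here sum both forms and do not separate them.
XBP1 with segment: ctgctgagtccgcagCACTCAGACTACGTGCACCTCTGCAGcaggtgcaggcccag
XBP1 joined: ctgctgagtccgcagcaggtgcaggcccag

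ATF6 and the XBP1 protein bind ER stress response elements in the promoters of chaperone genes. Both kinds were searched on both strands of the RefSeq promoter windows (GRCh38.p14, 250 bases before to 50 after a start site): ERSE, which is CCAAT, any 9 bases and CCACG, and ERSE-II, which is ATTGG, any base and CCACG. Of the 38 genes, 35 have a window in the RefSeq table. ERSE was present in 9 of the 35 (25.7%: XBP1, HSPA5, HSP90B1, CALR, CANX, CRELD2, PDIA6, ERO1B and SERP1), against 27 of all 35116 windows (0.0769%) and 17 of the 10505 genes of the deposited table with a window (0.162%). ERSE-II was present in 3 of the 35 (8.57%: HYOU1, SDF2L1 and HERPUD1), against 0.0541% of all windows and 0.124% of the table's genes. The shorter core TGACGTG of the unfolded protein response element was found in HYOU1 and SEC61A1 (5.71%), against 1.97% of all windows and 3.26% of the table's genes. CCACG alone, which is contained in both longer elements, was present in 77.1% of the members, 38.1% of all windows and 57.0% of the table's genes. Both comparison sets include the members. The elements searched were already known from chaperone gene promoters, so a high share among these genes was given in advance and was not tested. A match is a description of letters in these windows, and no binding was measured here. The windows of 6 genes that recur below are shown from the gene's 5′ side, ending before the start site, with both ends of the element in capitals (CGTGG and CCAAT where the element lies on the other strand).
XBP1, chr22:28800573-28800651, gene on the - strand: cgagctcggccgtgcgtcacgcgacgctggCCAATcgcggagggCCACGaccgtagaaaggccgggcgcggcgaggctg
HSPA5, chr9:125241361-125241439, gene on the - strand: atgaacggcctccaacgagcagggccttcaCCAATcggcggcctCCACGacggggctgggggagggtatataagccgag
PDIA6, chr2:10812823-10812901, gene on the - strand: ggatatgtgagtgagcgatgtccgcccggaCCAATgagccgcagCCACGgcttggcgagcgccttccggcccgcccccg
SDF2L1, chr22:21642084-21642154, gene on the + strand: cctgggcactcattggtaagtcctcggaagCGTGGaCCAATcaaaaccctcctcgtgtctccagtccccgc
HYOU1, chr11:119057350-119057420, gene on the - strand: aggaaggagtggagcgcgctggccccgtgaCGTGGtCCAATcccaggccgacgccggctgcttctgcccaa
HERPUD1, chr16:56931995-56932065, gene on the + strand: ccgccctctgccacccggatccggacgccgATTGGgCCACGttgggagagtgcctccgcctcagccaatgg
XBP1, HSPA5 and PDIA6 carry ERSE, and SDF2L1, HYOU1 and HERPUD1 carry ERSE-II. Of the 12 genes with either element, 10 were lower in Helicon 4 than in Helicon 4-neg at 10 µM and 48 h, HERPUD1 was higher and ERO1B was not called. Of the 23 whose window held neither, 14 were lower and 9 were not called. Of all genes tested in that comparison, 27% were lower and 26.7% higher. The difference between the 2 sets of members was not tested.

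Summed over the 38 genes, every Helicon 4 library at 24 and 48 h held less ER transcript than any Helicon 4-neg or DMSO library of that time. Their summed level at 48 h was 8667 ± 191, 7744 ± 56.4 and 7286 ± 171 scaled CPM in Helicon 4 at 1, 3 and 10 µM (SD, n = 3 each). Helicon 4-neg at the same doses had 10350 ± 104, 10230 ± 84.8 and 9980 ± 40.9 scaled CPM, and DMSO had 10460 ± 114. At 10 µM the Helicon 4 mean was 73% of that of Helicon 4-neg and 69.7% of that of DMSO. At 24 h the sum was 9414 ± 121, 8454 ± 156 and 7927 ± 315 scaled CPM in Helicon 4, 9986 ± 168, 10150 ± 39.7 and 10000 ± 122 in Helicon 4-neg, and 9771 ± 262 in DMSO. The 10 µM mean was then 79.3% of that of Helicon 4-neg. At 6 h all 7 group means lay between 10570 and 10970 scaled CPM, and Helicon 4 at 10 µM stood at 98.7% of Helicon 4-neg, with DMSO the lowest group. These sums are weighted towards the most abundant members and carry no test.

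**Figure D1:**
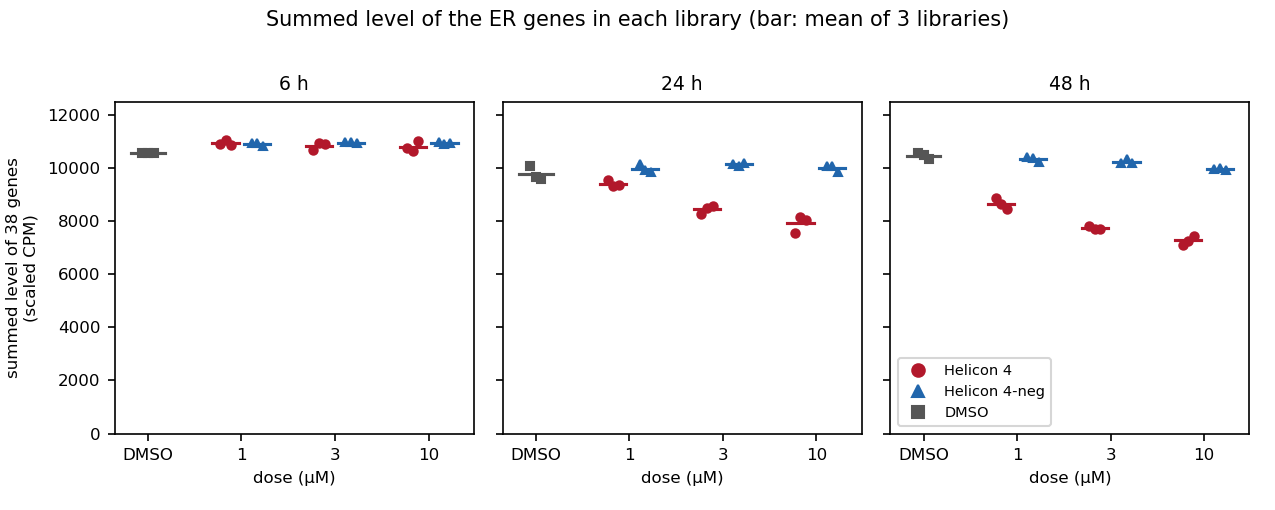
Summed level of the 38 ER genes (scaled CPM, y axis from 0) in every library by dose (µM) at 6, 24 and 48 h; bars are means of 3 libraries. At 48 h the Helicon 4 libraries sit between 7123 and 8865 scaled CPM, below the 9947 to 10420 of Helicon 4-neg and the 10340 to 10560 of DMSO.

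Gene by gene, a limma fit on log2(value + 1) was used, and a gene was called at a Benjamini-Hochberg adjusted p below 0.05 over all genes tested. Log2 differences are on that scale, which understates changes of low genes. Groups without overlap of libraries were common. Helicon 4 and Helicon 4-neg at 10 µM were apart in 28.5%, 54.9% and 62.8% of all genes at 6, 24 and 48 h. Of the 38 genes they were apart in 9, 32 and 33. For Helicon 4 against DMSO at 10 µM the shares of all genes were 28%, 55.2% and 65.7%. Against Helicon 4-neg at the same dose, at 24 h Helicon 4 had 12 of the 38 genes lower at 1 µM, 27 lower at 3 µM, and 29 lower with 1 higher at 10 µM. Of all genes tested, 25.5%, 42.9% and 52.7% were called in either direction, 14.1%, 23.3% and 27.6% were called lower, and 11.4%, 19.6% and 25.1% higher. At 48 h the counts were 24 lower at 1 µM, 29 lower and 1 higher at 3 µM, and 26 lower and 1 higher at 10 µM. Of all genes, 35.9%, 52.5% and 53.7% were called in either direction, 20.1%, 26.6% and 27% were called lower, and 15.8%, 25.9% and 26.7% higher. The median log2 difference of the 38 genes at 10 µM was -0.29 at 24 h and -0.40 at 48 h, while that of all genes tested was -0.0007 and 0.011. At 6 h the test called 0, 1 and 3 of the 38 genes at 1, 3 and 10 µM, where it called 0.0613%, 1.64% and 8.42% of all genes. At 1 µM, 9 genes had an unadjusted p below 0.05 and edgeR called 0. Centring each library on its median changed the share of higher genes among all called genes from this comparison at 6 h (main 12.5%, 29% and 32.3% at 1, 3 and 10 µM, centred 0%, 39.7% and 45.2%) and at 1 µM and 24 h (main 44.8%, centred 59.2%). Without the library of low mitochondrial share, 23 genes were lower at 1 µM and 48 h, and 29 were lower and 1 higher at 3 µM and 48 h.

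Against DMSO of the same time, Helicon 4 at 24 h had 9 genes lower at 1 µM, 22 lower and 1 higher at 3 µM, and 25 lower and 1 higher at 10 µM. At that time 18.9%, 45.2% and 52.7% of all genes were called (10.3%, 24.4% and 27.6% lower, 8.59%, 20.8% and 25.1% higher). At 48 h the counts were 24 lower and 2 higher at 1 µM, 27 lower and 4 higher at 3 µM, and 27 lower and 3 higher at 10 µM. Of all genes, 40.9%, 59.2% and 59.8% were called (21.2%, 28.5% and 28.7% lower, 19.7%, 30.8% and 31.1% higher). The contrasts with Helicon 4-neg and with DMSO share the Helicon 4 libraries. At 10 µM, 25 genes were lower in Helicon 4 than in both Helicon 4-neg and DMSO at 24 h and 25 at 48 h, as were 21.7% and 22.2% of all genes tested. HERPUD1 was higher than in both at 6, 24 and 48 h, as were 0.784% of all genes. At 6 h against DMSO the counts were 6 higher and 1 lower at 1 µM, 6 higher and 3 lower at 3 µM, and 3 higher and 1 lower at 10 µM. Of all genes, 12.7%, 9.17% and 13.7% were called (5.61%, 4.65% and 5.32% higher, 7.07%, 4.52% and 8.4% lower). XBP1, HERPUD1 and SSR1 were higher at all 3 doses, which were compared with the same DMSO libraries. The share of all genes higher at all 3 was not counted. The 6 h share of higher genes among all called genes was 44.2%, 50.7% and 38.7% in the main fit and 61.4%, 67.4% and 64.1% with median centring. At 1 µM and 6 h the count was 0 without replicate 2 of DMSO, and 3 and 1 without replicate 1 or 2 of Helicon 4.

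**Figure D2:**
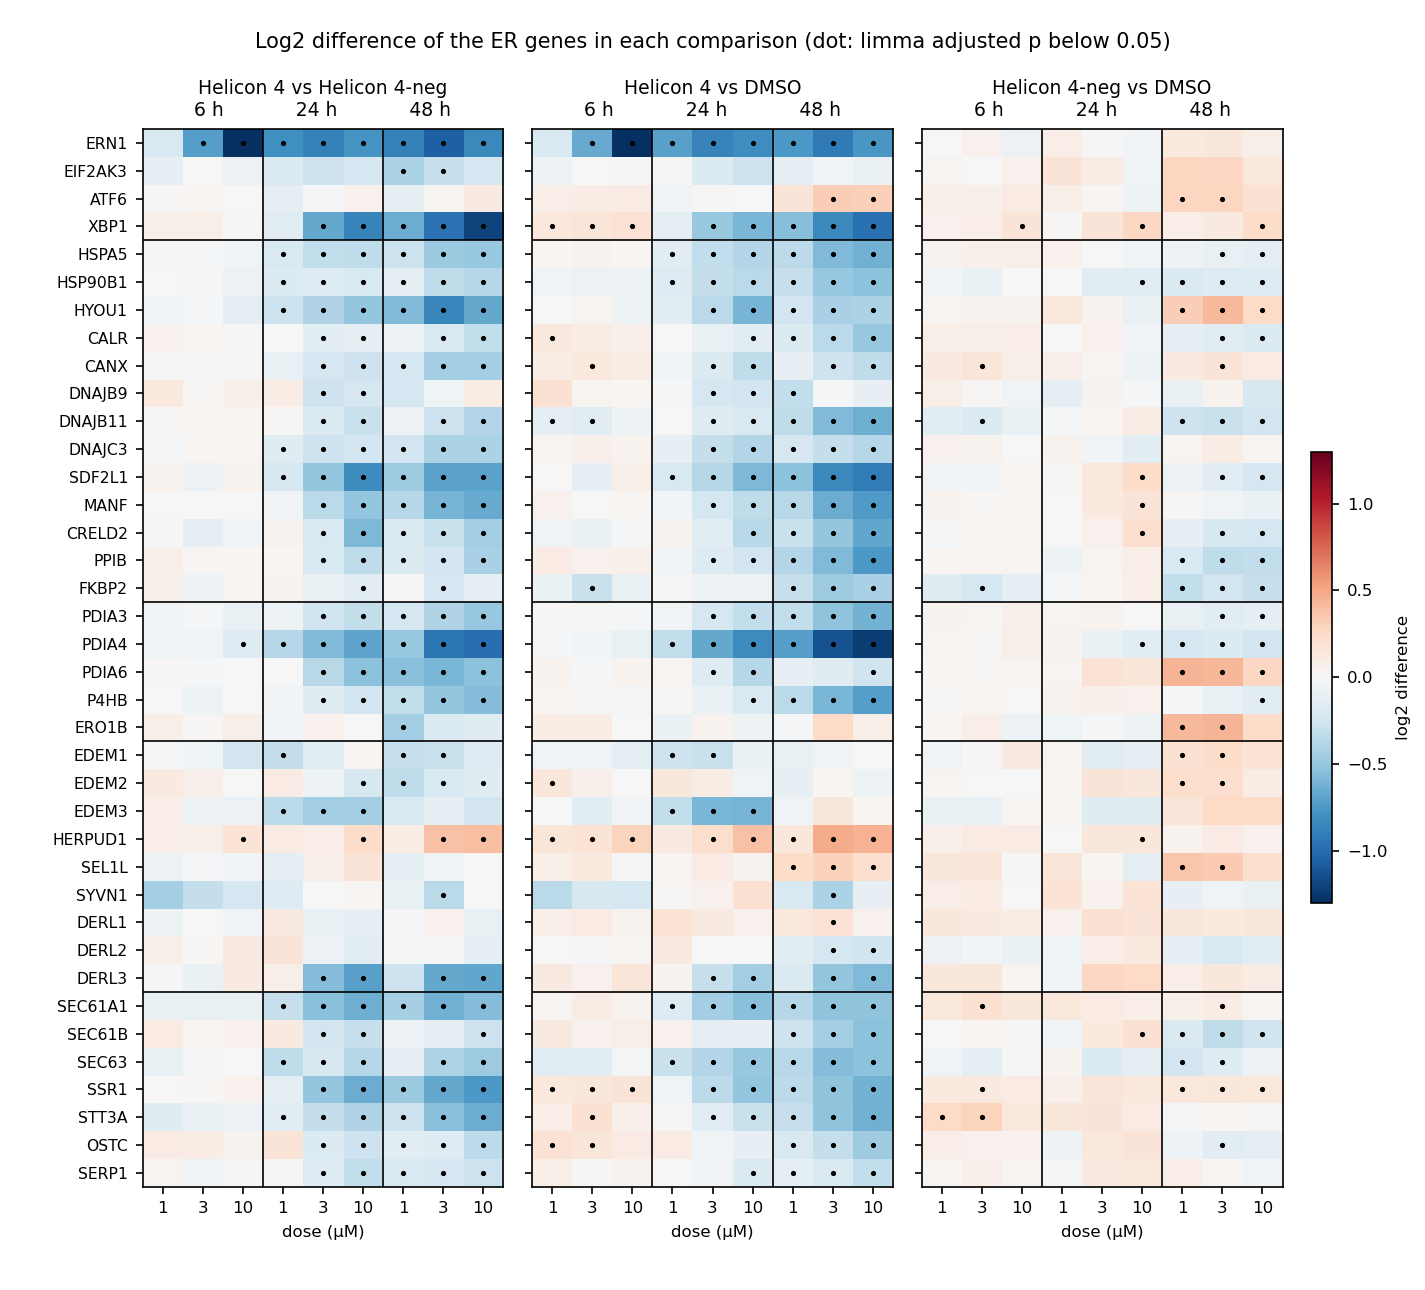
Log2 difference of each of the 38 genes (rows, grouped by role from sensors at the top to translocation at the bottom) in Helicon 4 against Helicon 4-neg, Helicon 4 against DMSO and Helicon 4-neg against DMSO, by dose (µM) within 6, 24 and 48 h; a dot marks a call at adjusted p below 0.05. Rows of chaperones, disulfide enzymes and translocation genes turn blue (lower) from 24 h in the first 2 panels, ERN1 is lower from 6 h, and HERPUD1 is red (higher).

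Of the sensor genes, ERN1 was lower in Helicon 4 from 6 h and XBP1 from 24 h, while ATF6 was not called between the compounds at any dose or time. ERN1, the kinase and endoribonuclease IRE1α, had 6.57, 6.44 and 7.43 scaled CPM in Helicon 4 at 10 µM and 6 h, against 17.9, 18.3 and 18.7 in Helicon 4-neg and 19.4, 19.4 and 19.3 in DMSO. At 3 µM and 6 h it had 11.2, 12.6 and 12.0 in Helicon 4 and 20.4, 22 and 18.3 in Helicon 4-neg, and at 1 µM it had 17.0, 16.4 and 16.8 in Helicon 4, against 19.1, 18.5 and 20.6 in Helicon 4-neg. All Helicon 4 libraries of that time lay below all Helicon 4-neg and DMSO libraries, and the values ordered by dose without overlap. The fall against Helicon 4-neg was called at 10 µM (log2 difference -1.31, SE 0.072, adjusted p = 2.3e-12). It was also called at 3 µM (log2 difference -0.71, SE 0.072, adjusted p = 1.5e-06), but not at 1 µM (log2 difference -0.20, SE 0.072, adjusted p = 0.23). At 48 h ERN1 had 11.8, 10.3 and 11.3 scaled CPM in Helicon 4 at 10 µM, 20.4, 20.6 and 21.2 in Helicon 4-neg and 19.5, 19.1 and 20.0 in DMSO. It was lower than in Helicon 4-neg at all doses at 24 h (-0.80, -0.88 and -0.77 log2 at 1, 3 and 10 µM) and 48 h (-0.88, -1.06 and -0.84), where the doses overlapped. The difference between the compounds at 10 µM was smaller at 48 h than at 6 h by 0.47 log2 (SE 0.12, adjusted p = 0.0013).

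XBP1, the transcription factor that IRE1 activates, had 320.5, 315 and 335 scaled CPM in Helicon 4 at 10 µM and 6 h, 319, 316 and 322 in Helicon 4-neg and 284, 273 and 295 in DMSO. At that time it was not called between the compounds (0.019, 95% interval -0.053 to 0.092, adjusted p = 0.82), and both compounds at 10 µM were above DMSO (log2 0.19 for Helicon 4 and 0.17 for Helicon 4-neg). The call for Helicon 4-neg was lost without any of its 3 libraries or without replicate 1 or 2 of DMSO (0.14 to 0.17, adjusted p = 0.12 to 0.17), and with median centring (adjusted p = 0.059). At 24 h it had 179, 211 and 204 in Helicon 4 at 10 µM, 362, 366 and 357 in Helicon 4-neg and between 296 and 300.3 in DMSO. At 48 h the values were 158, 156 and 161 in Helicon 4, 361, 370.2 and 369 in Helicon 4-neg and 327, 307 and 299 in DMSO. The 3 groups did not overlap at 24 or 48 h, with Helicon 4 below DMSO and Helicon 4-neg above it. At 48 h the log2 difference from Helicon 4-neg was the largest fall among the 38 genes (log2 difference -1.21, SE 0.046, adjusted p = 4.2e-16), and the mean was 43.2% of that in Helicon 4-neg and 50.9% of that in DMSO. At 1 and 3 µM the 48 h differences were -0.64 and -0.96 log2. XBP1 at 10 µM was lower than at 1 µM within Helicon 4 at both 24 h and 48 h (log2 -0.47 and -0.41). Helicon 4-neg at 10 µM was above DMSO at 24 and 48 h (log2 0.27 and 0.24).

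EIF2AK3, which encodes PERK, had 10.5, 11.5 and 9.44 scaled CPM in Helicon 4 at 10 µM and 48 h, 13.1, 12.1 and 12.1 in Helicon 4-neg and 12.8, 10.6 and 10.6 in DMSO. The Helicon 4 libraries were below those of Helicon 4-neg and overlapped with those of DMSO. The 10 µM difference was not called (-0.23, 95% interval -0.48 to 0.013, adjusted p = 0.1), whereas those at 1 and 3 µM were (log2 -0.41 and -0.30, adjusted p = 0.0093 and 0.036). The 1 µM call was lost without replicate 1 of Helicon 4-neg, the library of low mitochondrial share (-0.32, adjusted p = 0.058), or replicate 2 of Helicon 4 (adjusted p = 0.068). The 3 µM call was lost without the corresponding replicate 3 of Helicon 4-neg (-0.15, adjusted p = 0.27) or any replicate of Helicon 4 (adjusted p = 0.064 to 0.087). ATF6, the sensor that becomes a transcription factor, had 71.6, 77.0 and 77.8 in Helicon 4, 70.6, 68.2 and 70.4 in Helicon 4-neg and 66.8, 58.2 and 57.8 in DMSO at that dose and time. The 3 groups did not overlap, with Helicon 4 highest. Between the compounds the difference was 0.11, 95% interval -0.03 to 0.25, adjusted p = 0.18. Helicon 4 at 3 and 10 µM was higher than DMSO at 48 h (log2 0.32 and 0.31), as was Helicon 4-neg at 1 and 3 µM (0.28 and 0.28), of which the first was lost without replicate 1 of Helicon 4-neg (0.18, adjusted p = 0.055).

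**Figure D3:**
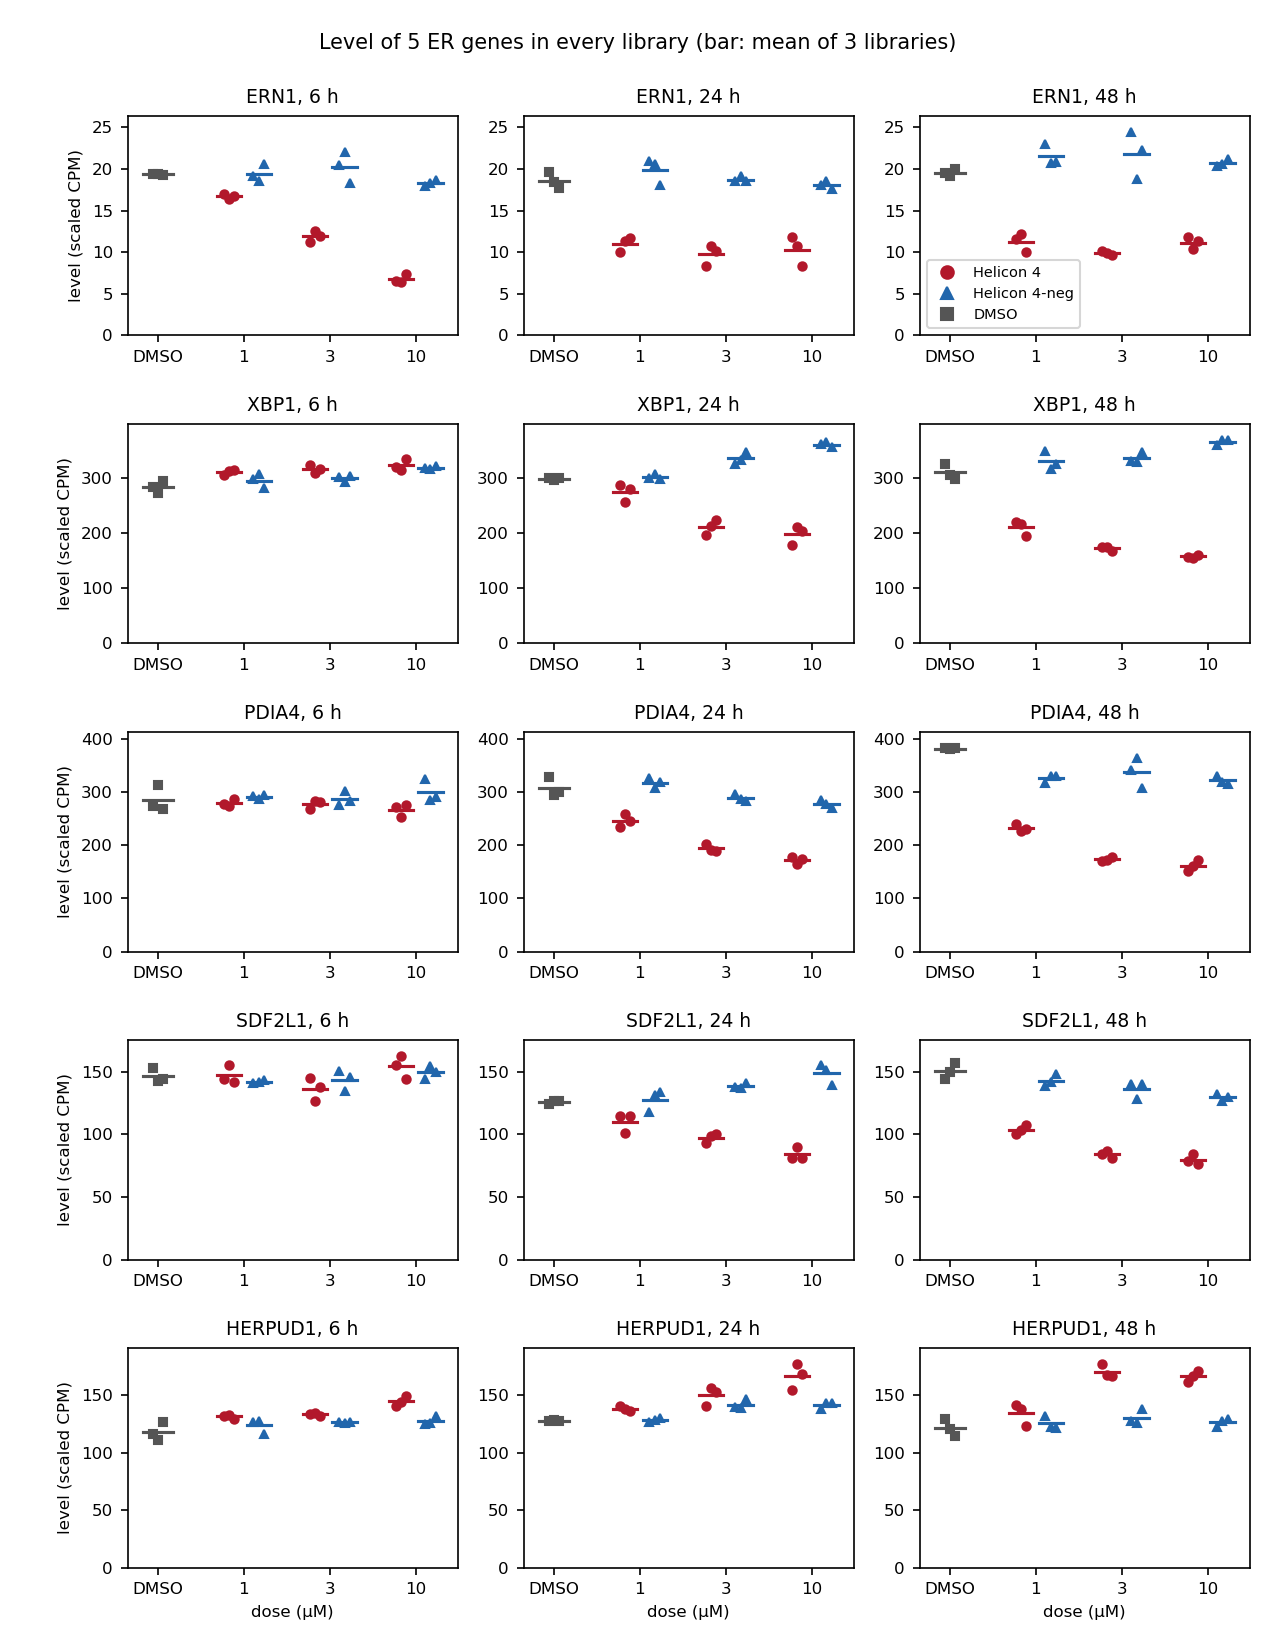
Level (scaled CPM, y axis from 0) of ERN1, XBP1, PDIA4, SDF2L1 and HERPUD1 in every library by dose (µM) at 6, 24 and 48 h; bars are means of 3 libraries. ERN1 is lower in Helicon 4 from 6 h on, XBP1, PDIA4 and SDF2L1 are lower from 24 h, and HERPUD1 at 10 µM is higher than in Helicon 4-neg at all 3 times.

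Most chaperones fell together at 24 and 48 h. At 10 µM against Helicon 4-neg, 13 of the 13 were lower at 24 h and 11 of 13 at 48 h. Of all genes, 27.6% and 27% were lower at these times. At 6 h 0 of 13 were called at any dose, with 0 at an unadjusted p below 0.05 and 0 in edgeR. Of all genes, 0.0613%, 1.64% and 8.42% were called at 6 h at 1, 3 and 10 µM. DNAJB9 (ERdj4) and FKBP2, a prolyl isomerase, were the 2 not called at 48 h (DNAJB9 0.095, 95% interval -0.10 to 0.29, adjusted p = 0.43; FKBP2 -0.12, 95% interval -0.28 to 0.041, adjusted p = 0.2). SDF2L1, a partner of the HSP40-type protein DNAJB11, had 78.9, 84.6 and 76.3 scaled CPM in Helicon 4 at 10 µM and 48 h, 132, 127 and 129.8 in Helicon 4-neg and 145, 149.9 and 157 in DMSO. Every Helicon 4 value was below every value of the other 2 groups (log2 difference -0.69, SE 0.048, adjusted p = 1.9e-11 against Helicon 4-neg). HYOU1, a nucleotide exchange factor for BiP, had 80.2, 85.0 and 79.1 in Helicon 4, 136, 125 and 129 in Helicon 4-neg and 119.7, 105 and 101 in DMSO. Helicon 4 was the lowest group, and DMSO lay below Helicon 4-neg, so the difference was larger from Helicon 4-neg (log2 difference -0.67, SE 0.081, adjusted p = 2.4e-07) than from DMSO (-0.41). MANF, an ER-resident factor that binds BiP, had 87.5, 88.1 and 86.8 in Helicon 4, 136, 135 and 143 in Helicon 4-neg and 149, 148 and 142 in DMSO, with Helicon 4 below both other groups, which overlapped (log2 difference -0.65, SE 0.046, adjusted p = 3.2e-11 against Helicon 4-neg).

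HSPA5 (BiP), the central HSP70 of the ER, averaged 729 ± 21.8 scaled CPM in Helicon 4 at 10 µM and 48 h, 1028 ± 11.0 in Helicon 4-neg and 1124 ± 20.5 in DMSO (SD, n = 3 each), and its log2 difference from Helicon 4-neg was -0.50. HSP90B1 (GRP94), the ER HSP90, averaged 828 ± 19.7 in Helicon 4, 1070.0 ± 11.8 in Helicon 4-neg and 1201 ± 16.9 in DMSO (log2 -0.37). The lectin chaperones CALR and CANX had log2 differences of -0.32 and -0.44, both called. The remaining called chaperones were the BiP co-chaperones DNAJB11 (-0.38) and DNAJC3 (-0.41), CRELD2, a secreted ER stress protein (-0.45), and PPIB, the prolyl isomerase cyclophilin B (-0.42). At 24 h the chaperones ranged between -0.82 for SDF2L1 and -0.11 for CALR at 10 µM. HSPA5 and HYOU1 were lower than in Helicon 4-neg at every dose at both 24 and 48 h, and kept these calls under every alternative run. At 1 µM HSPA5 had log2 differences of -0.19 at 24 h and -0.28 at 48 h.

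Of the disulfide enzymes, 4 of 5 were lower in Helicon 4 than in Helicon 4-neg at 10 µM at both 24 and 48 h, as were 20.8% of all genes. PDIA4 (ERp72) had 151, 161 and 172 scaled CPM in Helicon 4 at 10 µM and 48 h, 329.9, 319 and 315 in Helicon 4-neg and 383, 380.1 and 382 in DMSO. The 3 groups were fully separate (log2 difference -0.99, SE 0.049, adjusted p = 5e-14 against Helicon 4-neg), and Helicon 4 stood at 42.3% of the DMSO mean. At 24 h PDIA4 had 178, 165 and 174 in Helicon 4, 285, 277 and 269.9 in Helicon 4-neg and 327, 295 and 299.8 in DMSO, again with Helicon 4 lowest (-0.68 log2 against Helicon 4-neg). Its 6 h difference was small (log2 difference -0.17, SE 0.052, adjusted p = 0.046) and was not called by edgeR (adjusted p = 0.053). It was also not called without replicate 1, 2 or 3 of Helicon 4 or replicate 1 or 3 of Helicon 4-neg (adjusted p = 0.054 to 0.30, log2 -0.19 to -0.11). P4HB, the founding protein disulfide isomerase, had 552, 566 and 575 in Helicon 4, 853, 833 and 825 in Helicon 4-neg and 948, 924 and 904 in DMSO at 10 µM and 48 h. All Helicon 4 values were below all others (log2 difference -0.57, SE 0.034, adjusted p = 1.6e-12). PDIA6 had 365, 392 and 378 in Helicon 4, 535, 556 and 547 in Helicon 4-neg and 504, 443 and 419.6 in DMSO. It too was lowest in Helicon 4 (log2 difference -0.53, SE 0.086, adjusted p = 1.6e-05), but its DMSO values lay below those of Helicon 4-neg. Against DMSO the difference was -0.26 (adjusted p = 0.012), and it was not called without replicate 1 of DMSO (-0.19, adjusted p = 0.087). PDIA3 (ERp57), which works with the lectin chaperones, had a called difference of -0.49 log2. ERO1B, the oxidase that recharges protein disulfide isomerase, was not called at 10 µM (-0.16, 95% interval -0.44 to 0.12, adjusted p = 0.33) and was lower at 1 µM and 48 h (-0.44, adjusted p = 0.012). That 1 µM call was lost without replicate 1 of Helicon 4-neg, of low mitochondrial share (-0.28, adjusted p = 0.1), or replicate 3 of Helicon 4 (adjusted p = 0.076).

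Of the 9 ERAD genes, 2 were lower than in Helicon 4-neg at 10 µM and 48 h, 1 was higher and 6 were not called. Of all genes, 27% were lower and 26.7% higher in that contrast. DERL3, a derlin of the retrotranslocation complex, had 4.89, 4.74 and 4.04 scaled CPM in Helicon 4, 8.16, 7.32 and 8.04 in Helicon 4-neg and 6.91, 7.64 and 7.17 in DMSO. Helicon 4 was lowest without overlap (log2 difference -0.67, SE 0.11, adjusted p = 1.4e-05), at levels that rest on 59 reads in the lowest library of the series. EDEM2, which acts in mannose trimming of misfolded glycoproteins, was also lower (log2 -0.16, adjusted p = 0.032), a call lost without replicate 1 or 2 of Helicon 4 or replicate 1 or 3 of Helicon 4-neg (-0.17 to -0.11, adjusted p = 0.06 to 0.2). Its relative EDEM3 had 13.7, 12.0 and 13.2 in Helicon 4, 15.6, 16.7 and 14.1 in Helicon 4-neg and 14.4, 10.9 and 13.1 in DMSO, and the Helicon 4 libraries overlapped with DMSO. EDEM3 was not called at 48 h (-0.24, 95% interval -0.48 to 0.011, adjusted p = 0.1), but at 24 h it was lower at all 3 doses (-0.35, -0.44 and -0.44). SEL1L and SYVN1, the adaptor and ligase of the HRD1 complex, and DERL1 and DERL2 had 10 µM, 48 h differences between -0.12 (DERL2) and -0.0022 (SEL1L), none called. Their 95% intervals reached from -0.28 to 0.053 for DERL2 and from -0.25 to 0.24 for SYVN1. EDEM1 was not called at 10 µM (-0.17, 95% interval -0.32 to -0.021, adjusted p = 0.051) and was lower at 1 µM at 24 h (-0.31) and at 1 and 3 µM at 48 h (-0.30 and -0.29).

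HERPUD1, a membrane scaffold of the HRD1 complex, rose in Helicon 4. At 10 µM it had 141, 144 and 149 scaled CPM in Helicon 4 at 6 h, 125, 126 and 132 in Helicon 4-neg and 116, 111 and 127 in DMSO. At 24 h it had 155, 177 and 168 in Helicon 4, 138, 143 and 143 in Helicon 4-neg and 127, 128 and 128 in DMSO. At 48 h it had 161, 167 and 171 in Helicon 4, 122, 127 and 129 in Helicon 4-neg and 129, 120.5 and 115 in DMSO. The Helicon 4 libraries were above all libraries of both other groups at each time. The rise against Helicon 4-neg was 0.18 log2 at 6 h (adjusted p = 0.0060), 0.23 at 24 h (adjusted p = 0.00014) and 0.40 at 48 h (adjusted p = 1.2e-06). At 3 µM it was called at 48 h (0.38) and not at 6 or 24 h (0.075 and 0.081). Within Helicon 4 it was higher at 10 than at 1 µM at 6, 24 and 48 h (0.14, 0.27 and 0.31), and the 6 h call was lost without each of the 6 libraries compared in turn (0.12 to 0.16, adjusted p = 0.055 to 0.16). The promoter windows printed above show the same element, ERSE-II, in HERPUD1 as in SDF2L1 and HYOU1, whose values went the other way. HYOU1 has 2 copies of it in its window, and HERPUD1 and SDF2L1 have 1 each. The part of the element in these values was not tested.

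All 7 genes of translocation and glycosylation were lower in Helicon 4 than in Helicon 4-neg at 10 µM at 24 h and at 48 h, with a median log2 difference of -0.47 at 48 h. Of all genes, 27.6% and 27% were lower at these times. SSR1, a subunit of the translocon-associated protein complex, had 201, 195 and 212 scaled CPM in Helicon 4, 332, 350.0 and 340.3 in Helicon 4-neg and 322, 307 and 303 in DMSO at 48 h. Helicon 4 was lowest and DMSO was below Helicon 4-neg (log2 difference -0.75, SE 0.043, adjusted p = 8.4e-13 against Helicon 4-neg). STT3A, the catalytic subunit of the cotranslational oligosaccharyl transferase, had 121, 118 and 129 in Helicon 4, 195, 189 and 192 in Helicon 4-neg and 190.2, 190.0 and 189 in DMSO. Here Helicon 4-neg and DMSO overlapped and Helicon 4 was separate (log2 difference -0.65, SE 0.049, adjusted p = 1.1e-10). SEC61A1, which forms the channel, had 288, 284 and 284 in Helicon 4, 426, 418 and 419.8 in Helicon 4-neg and 419, 412 and 399.6 in DMSO (log2 difference -0.56, SE 0.035, adjusted p = 3.1e-12), and it was lower at every dose at 24 and 48 h. The channel subunit SEC61B, its partner SEC63, the transferase subunit OSTC and the translocon-associated SERP1 were also called lower, at -0.27, -0.47, -0.34 and -0.28 log2 in that order.

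**Figure D4:**
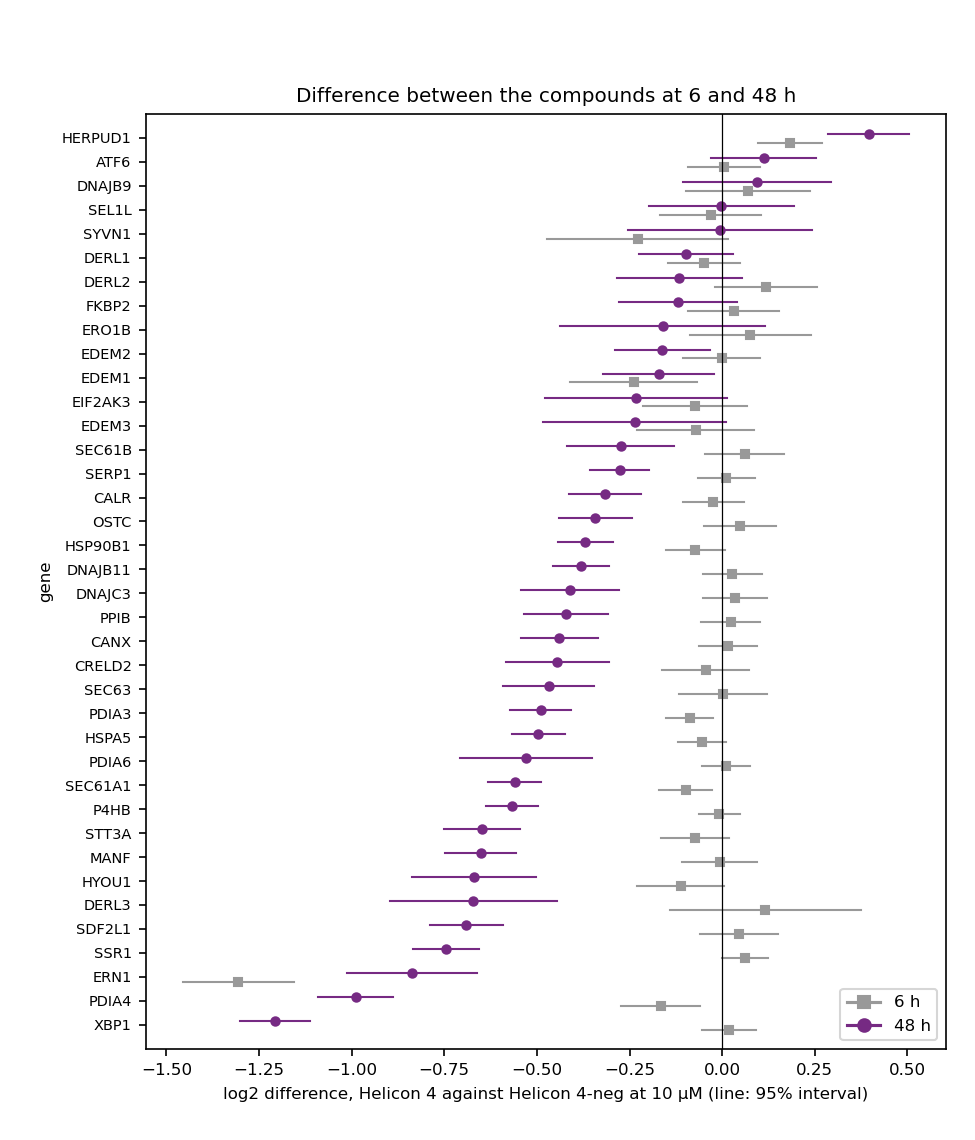
Log2 difference between Helicon 4 and Helicon 4-neg at 10 µM (x axis) for each of the 38 genes (rows, ordered by the 48 h value) at 6 h (grey squares) and 48 h (purple circles), with 95% intervals as lines. At 6 h only ERN1 lies far from 0 (-1.31), and at 48 h values run between -1.21 for XBP1 and 0.40 for HERPUD1.

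The difference between the compounds at 10 µM itself changed between 6 and 48 h in 26 of the 38 genes (40.6% of all genes), tested in a fit of all 63 libraries. It became lower in 24 (19.9% of all genes), with XBP1 (-1.23), PDIA4 (-0.82) and SSR1 (-0.81) changing most, and higher (20.7% of all genes) in ERN1 and HERPUD1 (0.21, lost under median centring, where it was 0.15 with an adjusted p of 0.1). By role these were 11 of 13 chaperones, 4 of 5 disulfide enzymes, 7 of 7 translocation genes, 2 of 9 ERAD genes and 2 of 4 sensors. Within Helicon 4, 10 µM differed from 1 µM in 2 genes at 6 h (ERN1 lower, HERPUD1 higher), in 27 lower and 1 higher at 24 h, and in 21 lower and 1 higher at 48 h. These contrasts had 8.53%, 36.2% and 31.5% of all genes called (3.4%, 15.8% and 16.3% higher, 5.13%, 20.4% and 15.2% lower). The share of higher genes among these was 39.9% at 6 h and 51.8% at 48 h, and 50% and 38.1% with median centring. Over the 3 times at 10 µM against Helicon 4-neg, 26 genes were lower at both 24 and 48 h, as were 20.8% of all genes tested. At none of the 3 times were 8 called, nor were 32% of all genes (EIF2AK3, ATF6, ERO1B, EDEM1, SEL1L, SYVN1, DERL1 and DERL2).

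Helicon 4-neg differed from DMSO in both directions among these genes, with the most calls at 48 h. At 6 h the test called 1, 6 and 1 genes at 1, 3 and 10 µM (0.0306%, 1.75% and 0.26% of all genes). The 6 were 4 higher (0.781% of all genes) and 2 lower (0.965%), and their number was 0 and 2 without replicate 1 or 3 of Helicon 4-neg and 3 with median centring. At 24 h it called 0, 0 and 8 (0%, 2.36% and 11.7% of all genes). The 8 were 6 higher (5.55% of all genes) and 2 lower (6.16%). The 0 counts had 3 and 15 genes at an unadjusted p below 0.05, and edgeR called 0 and 2. At 48 h it called 8 higher and 7 lower at 1 µM, 10 higher and 13 lower at 3 µM, and 4 higher and 12 lower at 10 µM. Of all genes, 24.3%, 28.3% and 19% were called (14%, 15.8% and 10.4% higher, 10.3%, 12.5% and 8.55% lower). With median centring the share of higher genes among all called genes changed at 6 h at 1 µM (main 25%, centred 60%) and 10 µM (main 55.9%, centred 67.7%), at 10 µM and 24 h (main 47.4%, centred 60.6%) and at 3 µM and 48 h (main 55.9%, centred 41.5%). Calls at all 3 doses rest on the same DMSO libraries, and the share of all genes with such calls was not counted. HSP90B1 and DNAJB11 were lower at all 3 doses at 48 h under every alternative run, with HSP90B1 at -0.19, -0.16 and -0.17 log2. HYOU1, PDIA6 and SSR1 were higher at all 3 doses, with PDIA6 at 0.44, 0.43 and 0.27 log2. PPIB, FKBP2, PDIA4 and SEC61B were lower at all 3, with PPIB at -0.19, -0.33 and -0.32. Each of these 7 genes lost at least 1 of its 3 calls without a library of low mitochondrial share or without replicate 2 or 3 of DMSO. PPIB at 1 µM was -0.11 (adjusted p = 0.12) without replicate 1 of Helicon 4-neg, and PDIA6 at 10 µM was 0.25 and 0.21 (adjusted p = 0.11 and 0.17) without those DMSO replicates. Gene length moved with these differences. Over the 38 genes, which share libraries, the Spearman correlation of the log2 difference with gene length was 0.42, 0.46 and 0.55 at 1, 3 and 10 µM at 48 h, against 0.092, 0.27 and 0.29 over 10425 genes. At 24 h the sign changed with dose, with 0.573, -0.289 and -0.43 over the 38 genes and 0.219, -0.403 and -0.486 over the 10425. For Helicon 4 against DMSO at 48 h the correlation over the 38 genes was 0.296, 0.244 and 0.324 at 1, 3 and 10 µM. For Helicon 4 against Helicon 4-neg at 48 h it was -0.0034, 0.016 and 0.084. At 1 µM that comparison had -0.503 at 6 h and -0.383 at 24 h. After a correction of every library for length and GC content, the 48 h counts for Helicon 4-neg against DMSO were 16, 17 and 12 genes. In the 2 libraries of low mitochondrial share, PDIA6 (725 and 704 scaled CPM) and HYOU1 (161 and 155) were the highest of their groups. Without the library concerned the counts were 8 at 1 µM and 10 at 3 µM. The 3 µM count was 11 and 10 without replicate 2 or 3 of DMSO, and the 10 µM count was 9 without replicate 3 of Helicon 4-neg and 7 and 8 without those DMSO replicates. At 10 µM and 24 h it was 1 to 5 without any 1 of the 6 libraries compared.

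The solvent cultures also drifted. In DMSO, 24 h differed from 6 h in 2 genes higher and 13 lower (20.4% of all genes called, 9.88% higher and 10.5% lower), and 48 h from 24 h in 17 higher and 11 lower (50.9%, of all genes 22.5% higher and 28.4% lower). From 24 to 48 h the largest log2 changes were in EIF2AK3 (-0.70), SEL1L (-0.67), SEC61B (0.66), ERO1B (-0.65) and HYOU1 (-0.63), chosen after their values were seen. Over all genes, the DMSO change between 24 and 48 h had a Spearman correlation of -0.44 with gene length (-0.52 over the 38 genes), and the harvest time cannot be told apart from how the libraries of a time were handled. Median centring shifted all genes of that contrast by 0.10 log2, and the share of higher genes among those called was 44.2% in the main fit and 61.2% after it.

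By level per length in DMSO at 6 h, OSTC (293.7 scaled CPM per kilobase), CALR (285.3) and HSPA5 (271.7) were the most abundant of the 38 and ERN1 the least (1.78). Across the 21 group means the widest range was that of ERN1 (3.21-fold between the highest and lowest mean), followed by HYOU1 (2.39-fold), PDIA4 (2.36-fold), XBP1 (2.32-fold) and DERL3 (2.32-fold). The narrowest was EDEM2 (1.27-fold).

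Further genes of the ER came from lists that exclude the 38. Against Helicon 4-neg at 10 µM and 48 h, some lists had more lower than higher. They were those of glycosylation, translocation, redox, other ERAD, ER export, calcium, glycan trimming and the PERK arm. Other chaperones had 9 higher and 4 lower. ER-phagy (5 higher, 4 lower), IRE1 partners (2 and 1) and ATF6 processing (2 and 1) were near even. At 24 h IRE1 partners had 2 higher and 3 lower and calcium genes 5 and 5, while the other lists kept their direction. At 10 µM and 48 h against Helicon 4-neg, where 26.7% of all genes were called higher and 27% lower, 16 of 27 oligosaccharyl transferase and dolichol pathway genes were lower and 1 was higher (median log2 -0.18). RPN1, a transferase subunit, averaged 439 ± 9.65 in Helicon 4 and 689.8 ± 6.92 in Helicon 4-neg scaled CPM (SD, n = 3 each; -0.65 log2), and OST4, a small subunit, was the one that rose (0.20). Of 23 translocon and signal peptidase genes, 12 were lower and 3 higher. SSR3, a partner of SSR1, averaged 368 ± 20.0 in Helicon 4 and 923 ± 28.5 in Helicon 4-neg (-1.33), and SEC62 was higher (0.40). Of 18 other disulfide and redox genes, 12 were lower and 2 higher (median -0.31). PDIA5 fell (-0.70), and QSOX1, a secretory sulfhydryl oxidase, rose (1.36). Of 25 other ERAD genes, 11 were lower and 4 higher, with the ubiquitin-conjugating enzyme UBE2J1 at -1.01 and the lectin OS9 at 0.54. Of 28 ER export and retrieval genes, 11 were lower and 2 higher, with the COPII coat gene SEC24D at -0.70 and the collagen exporter MIA3 at 0.27.

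Of 20 other chaperones and folding genes, 4 were lower and 9 higher. The prolyl isomerase FKBP11 averaged 22.1 ± 0.977 in Helicon 4 and 67.5 ± 0.279 in Helicon 4-neg (-1.57 log2), and the collagen chaperone SERPINH1 rose (0.79). Of 16 ER calcium genes, 8 were lower and 3 higher, with the calcium channel ITPR1 at -0.63 and the pump ATP2A3 at 0.83. Of 11 glycan trimming genes, 5 were lower and 1 higher, namely the mannosidases MAN1A1 (-0.76) and MAN1A2 (0.61) at the extremes. Of 12 PERK arm genes, 6 were lower and 4 higher. The transcription factor CEBPB fell (-0.72) and the stress protein NUPR1 rose (1.64). Of 14 ER-phagy and UFMylation genes, 4 were lower and 5 higher, with ATL3 at -0.36 and CALCOCO1 at 1.495. Of 9 IRE1 partners and decay targets, MAP3K5 was the 1 lower (-0.65) and 2 were higher, PDGFRB most (0.64). Of 7 measured genes of ATF6 processing and the CREB3 family, CREB3L2 was the 1 lower (-0.63) and 2 were higher, CREBZF most (0.47). At 6 h and 10 µM, 18 of the 210 genes tested in these 12 lists were called (8.57%), 5 higher and 13 lower, a share near the 8.42% of all genes. The PERK arm had 2 higher and 2 lower of 12, and the translocon list 1 higher and 3 lower of 23. At 48 h and 10 µM, 6 of 9 epithelial markers were higher in Helicon 4 and CDX2 was lower (-0.61 log2). The summed epithelial markers were 2795 to 2802 scaled CPM in Helicon 4, 3764 to 3863 in Helicon 4-neg and 4096 to 4317 in DMSO. That sum is mostly CDX2, whose median over all libraries was 3327 scaled CPM, against 160.8 for KRT8 and 71.4 for KRT18. Of 6 fibroblast markers, COL3A1 (2.35) and PDGFRA (1.14) were higher. Of 5 neuroendocrine markers CHGB was higher. The 13 mitochondrially encoded transcripts had log2 differences between -0.45 and 0.23 and did not pass the test. In Helicon 4 against DMSO at 10 µM, 11 of the 13 were lower at 6 h (median log2 difference -0.34), 13 higher at 24 h (0.36) and 6 lower at 48 h (-0.58). Of all genes, 8.4% were lower at 6 h, 25.1% higher at 24 h and 28.7% lower at 48 h. In Helicon 4-neg against DMSO at 10 µM, 7 of the 13 were higher at 24 h (median 0.30), as were 5.55% of all genes. The medians at 6 and 48 h were -0.16 and -0.23. The part of these markers in the ER results was not tested.

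**Figure D5:**
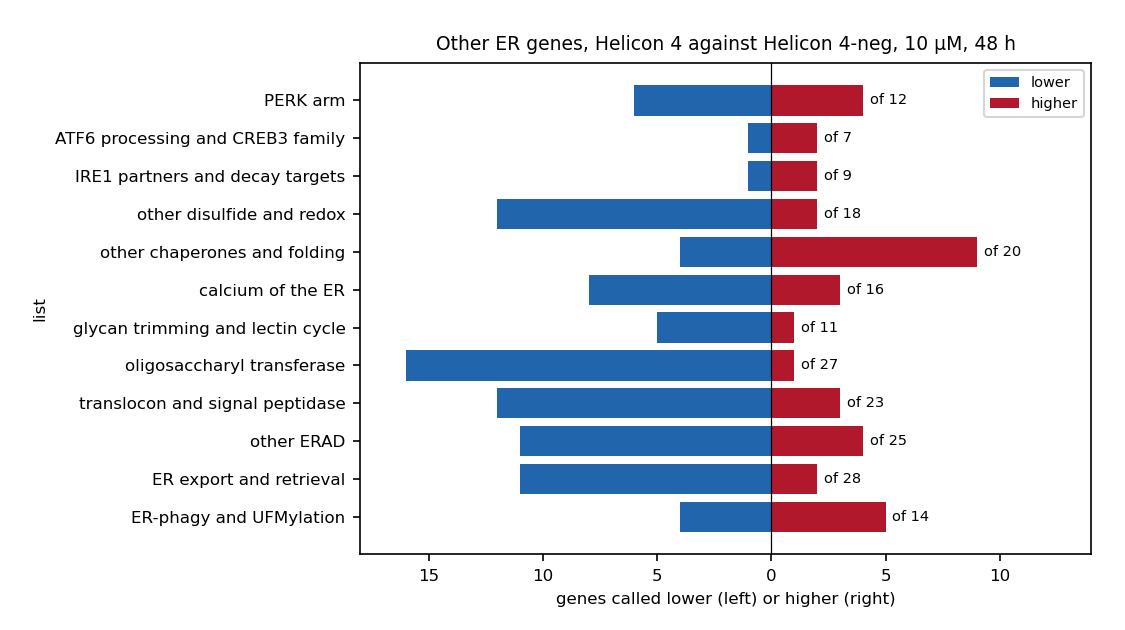
Genes of 12 further ER lists called lower (blue, left of 0) or higher (red, right of 0) in Helicon 4 against Helicon 4-neg at 10 µM and 48 h; the number at the right is the genes tested in the list. The oligosaccharyl transferase list has 16 lower and 1 higher of 27, while other chaperones have 4 lower and 9 higher of 20.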

How the data were processed

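RNA was measured in 63 libraries (21 groups of 3), prepared from poly(A) RNA with a stranded kit, per the labels' protocols. Trimmomatic 0.39, STAR 2.7.7a, featureCounts of Subread 2.4.2, edgeR 4.0.2 and the GRCh38 build are named in the submitters' processing notes; the annotation and the strand setting of the counting are not given in the sources used here, so reads of a gene and an overlapping antisense gene may not be told apart. The deposited table holds a normalised signal per gene, a CPM scaled by the authors with a factor per library (column sums 929785 to 1059740), for 13962 genes. Each value was a whole multiple of the worth of 1 read (0.0301 to 0.0622), and 100% came out whole within 0.01 read, giving 16628595 to 32860333 reads per library. This depth limits the low genes most.

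The main test was limma 3.58.1 (R 4.3.3, trend option) on log2(value + 1) over the 21 libraries of a time, or all 63 for contrasts between times. A gene was tested if its value reached 0.5 in 3 or more libraries (13057, 13213 and 13478 at 6, 24 and 48 h, and 13782 in the fit of all 63), which all 38 genes passed. Tests were two-sided with Benjamini-Hochberg adjustment over all genes tested, and an adjusted p below 0.05 was called with no fold threshold. Alternatives were robust empirical Bayes, median centring, no filter, a pseudocount of 0.1, the 63 libraries fitted together and blocking on replicate numbers. Others were edgeR 4.0.16 (quasi-likelihood, whole reads) and leaving out, in turn, each library of the groups that a contrast compares. A correction of every library for length and GC content was chosen after seeing the data. The fits were tested on simulated data.

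The 38 genes and all lists were chosen with earlier results of these data known. Library values are given for the 4 sensor genes and, in each other role, for the 3 genes with the largest difference between the compounds at 10 µM and 48 h; in each further list the largest called rise and fall are named. The leukocyte marker list is not reported here. Promoter windows are from RefSeq (GRCh38.p14); the XBP1 segment was read from GENCODE 29.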

Additional observations from a re-analysis of the deposited data

Results flagged for a closer look

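The difference between Helicon 4 and Helicon 4-neg at 10 µM was itself different at 48 h and 6 h in 26 of the 38 genes, by an interaction term in the limma fit of all 63 libraries (log2 difference at 48 h minus that at 6 h, Benjamini-Hochberg adjusted p below 0.05). It was higher at 48 h for ERN1 (0.47), which was already lower in Helicon 4 at 6 h, and for HERPUD1 (0.21), a call lost under median centring. Among the transcription factors and chaperones it was lower at 48 h for XBP1 (-1.23), SDF2L1 (-0.74), MANF (-0.65), HYOU1 (-0.56), CANX (-0.46), HSPA5 (-0.44), DNAJC3 (-0.44), PPIB (-0.44), DNAJB11 (-0.41), CRELD2 (-0.40), HSP90B1 (-0.30) and CALR (-0.29). Among the disulfide enzymes it was lower for PDIA4 (-0.82), P4HB (-0.56), PDIA6 (-0.54) and PDIA3 (-0.40). In ERAD it was lower for DERL3 (-0.79), and among the translocation and glycosylation genes for SSR1 (-0.81), STT3A (-0.57), SEC63 (-0.47), SEC61A1 (-0.46), OSTC (-0.39), SEC61B (-0.33) and SERP1 (-0.29). Over all genes tested, 40.6% were called by the same term. The 6 and 48 h libraries were harvested separately, and handling cannot be told apart from time.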

How the results depend on the processing

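Helicon 4 against Helicon 4-neg at 3 and 10 µM gave 24 to 27 and 27 to 30 called genes at 24 h, and 27 to 30 and 26 to 27 at 48 h, without any 1 library of the groups compared. The other libraries of a time, which share the estimate of the spread, stayed in each fit. For 10 µM at 48 h these include the libraries of low mitochondrial share, so the counts do not show what those libraries do to that contrast. Over all alternatives of these 4 contrasts, 2075 of 2128 gene values kept their direction and side of the threshold, 39 lost and 14 gained a call, and 0 changed sign. Among the other contrasts, 14908 of 15542 did so and 6 called values changed sign, all with the length and GC trends removed: SDF2L1 in Helicon 4-neg against DMSO at 48 h (0.11 at 3 µM, 0.048 at 10 µM), and in DMSO at 48 against 24 h SDF2L1 (-0.24), MANF (-0.042), SSR1 (0.016) and SERP1 (0.13). The cause was not tested.

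Counts that moved by over 1.5 times were mainly those of 6 h. Helicon 4 against DMSO at 1 µM and 6 h gave 4 in 1 fit of all libraries and 4 with the trends removed, and at 10 µM 7 with the trends removed. Helicon 4-neg against DMSO at 6 h gave, at 1 µM, 0 without the filter and 2 with the trends removed, at 3 µM, 3 with median centring, and at 10 µM, 0 with median centring. At 3 µM and 24 h it gave 5 in 1 fit of all libraries, 2 in edgeR and 3 with the trends removed. Helicon 4 at 10 against 1 µM and 6 h gave 1 with median centring and 1 in 1 fit of all libraries.

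Without 1 library at a time, Helicon 4 against Helicon 4-neg at 1 µM and 6 h gave 0 to 1 (1 without replicate 3 of Helicon 4). Helicon 4 against DMSO at 1 µM and 6 h gave 0 to 10, and Helicon 4 at 10 against 1 µM and 6 h gave 1 without each library. Helicon 4-neg against DMSO gave at 6 h 0 to 2 at 1 µM (0 without replicate 1 or 2 of Helicon 4-neg or 1 of DMSO), 0 to 5 at 3 µM (0 and 2 without replicate 1 or 3 of Helicon 4-neg) and 0 to 1 at 10 µM (0 without any Helicon 4-neg library or replicate 1 or 2 of DMSO). It gave 1 to 5 at 10 µM and 24 h, and 8 to 16, 10 to 23 and 7 to 16 at 1, 3 and 10 µM and 48 h.

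Replicate numbers did not pair the libraries: deviations of same-numbered libraries had mean correlations of -0.053, -0.022 and -0.048 at 6, 24 and 48 h. With the replicate block, Helicon 4-neg against DMSO gave 0 at 1 µM and 0 at 10 µM at 6 h, Helicon 4 at 10 against 1 µM gave 1 at 6 h, and 1238 of 1254 gene values kept their direction and side of the threshold. Depth limits the low genes DERL3 and ERN1 most.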
